A study of Mus musculus with 8 samples.

Results

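The genes described here are 32 targets and regulators of the sterol regulatory element binding proteins (SREBPs), the transcription factors that drive cholesterol and fatty acid synthesis. They were chosen by symbol, and a probe counted as a gene's own where its RefSeq accession led to that symbol. All 32 genes had a probe, and all 32 were among the 17513 genes tested. They fall into 18 enzymes of the sterol branch, 8 enzymes of the fatty acid branch, 5 regulators of SREBP processing and activity, and the sterol transfer protein Stard4.

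The samples were Thy1-positive cells from testes of C57BL/6 mice at postnatal day 4, from untreated pups left with their mothers. There were 4 arrays of Glis3KO2 mice, in which the zinc finger factor Glis3 is knocked out, and 4 arrays of wild type (WT) mice. Sorting on Thy1, a cell surface glycoprotein, enriches for spermatogonia that still divide and self-renew, and the labels call the cells spermatogonial progenitors. The sources used here do not give how the Glis3KO2 allele was made or which part of Glis3 it removes. The design text speaks of 3 testes per genotype, and no label says that samples came from separate animals, so p-values measure a spread that may be technical.

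Cells make cholesterol from acetyl-CoA through mevalonate, isoprenoid units and squalene, and then trim and rearrange the ring system of lanosterol. When membrane sterol is low, SCAP escorts SREBP from the endoplasmic reticulum to the Golgi, where proteases release its active part, and INSIG proteins hold SCAP back when sterol is plentiful. SREBP2 (gene Srebf2) acts mostly on sterol genes and SREBP1 (gene Srebf1) mostly on fatty acid genes. In the testis, Leydig cells use cholesterol for steroid hormones, and germ cells need it for membranes.

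Each value is a log2 signal relative to the 75th percentile of its own array. The 75th percentile lay between 251.5 and 458.2 units on Glis3KO2 arrays and between 243.2 and 532.7 units on WT arrays, and 86.0% to 90.3% of spots were well above background. All 53 probes of the 32 genes were well above background on all 8 arrays, and 0 spots of any array were saturated. Glis3 itself was lower on every Glis3KO2 array (-2.18 to -1.18) than on every WT array (-1.09 to 0.60), with a log2 difference of -1.43 (SE 0.45, limma adjusted p = 0.697); whether its probe lies in the removed part is not known here. Thy1, on which the cells were selected, had log2 signals of 2.21, 2.46, 1.36 and 1.47 in Glis3KO2 and 1.55, 2.05, 1.33 and -0.028 in WT, with overlapping groups and a difference of 0.65 (SE 0.44, limma adjusted p = 0.713). A second Thy1 probe differed by 1.28, with WT replicates 3 and 4 at -1.79 and -1.53 and the other 6 arrays between 0.91 and 1.79. WT replicates 3 and 4 stood apart on the first principal component, at 69.1 and 60.0 against -55.9 to 3.85 for the other 6 arrays, and WT replicate 1 on the second, at 80.8 against -30.0 to 3.2. Of the germ cell markers 14 of 15 tested were well above background on all 8 arrays. So were 14 of 14 Sertoli, 10 of 12 stroma and 13 of 13 macrophage markers. As 16103 of all 17513 genes were too, this flag does not show which cell types were present. By level, stroma markers summed to 36.5 to 162 times the array's 75th percentile in WT and 88.5 to 336 in Glis3KO2. Germ cell markers summed to 29.2 to 108 in WT and 26.6 to 44.7 in Glis3KO2, so the RNA was not from germ cells alone. In such mixed samples fewer cells of a type and less RNA per cell cannot be told apart. On both slides the Glis3KO2 arrays held other positions than the WT arrays, so position and genotype cannot be told apart.

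No SREBP gene passed the test over all genes. At a Benjamini-Hochberg adjusted p under 0.05, limma called 0 of the 32 and 0 of 17513 genes (0%, against 1208 genes at an unadjusted p under 0.05), and the adjusted p of the 32 ranged from 0.697 to 0.997. At an unadjusted p under 0.05, 4 of the 32 were lower in Glis3KO2, which is 12.5% against 4.75% of all genes, and 0 were higher, against 2.15% of all genes. All 4 were in the sterol branch: Dhcr7, Idi1, Mvd and Fdps. The count was 2 without Glis3KO2 replicate 1 (against 4.07% of all genes there) or without WT replicate 4 (against 3.08%). It was 0 without both WT replicates 3 and 4 (against 2.35% of all genes). Dhcr7 and Idi1 kept such a p when any 1 array was left out. A lower mean in Glis3KO2 was found for 24 of 32 genes (75%), against 59.2% of all genes. The median log2 difference was -0.25 over the 32 genes and -0.084 over all genes.

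**Figure D1:**
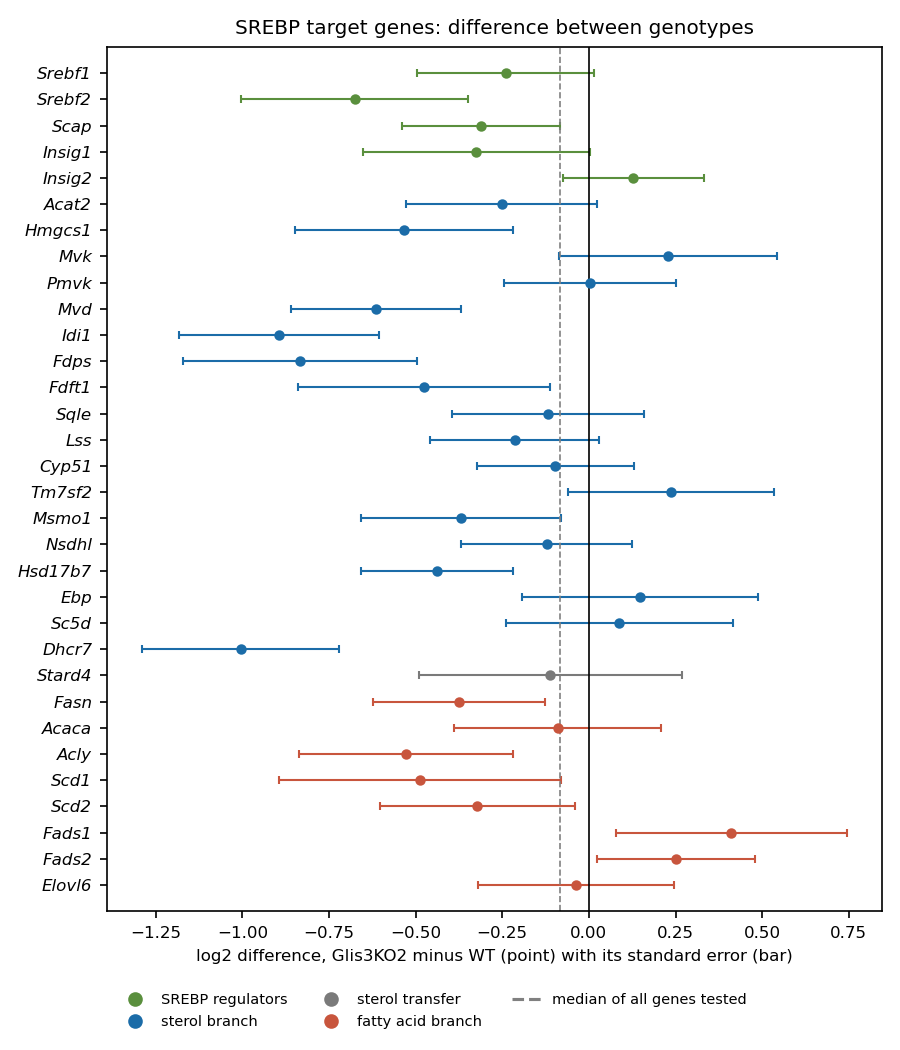
The log2 difference, Glis3KO2 minus WT, of each of the 32 genes (point) with its standard error (bar), in pathway order from regulators to fatty acid enzymes; the dashed line is the median of all genes tested. Dhcr7 (-1.0), Idi1 (-0.89), Fdps (-0.83), Srebf2 (-0.68) and Mvd (-0.61) lie farthest to the left, and Fads1 (0.41) farthest to the right.

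The promoters of these genes are known for a CCAAT box, bound by NF-Y, beside a sterol regulatory element. RefSeq start site windows on GRCm38.p6, from 250 bases before to 50 bases after a start, were at hand for 25 of the 32 genes. CCAAT, searched on both strands, was in a window of 20 of these 25 genes (80.0%), against 41.1% of all genes with a window. By group it was in 14 of 15 sterol genes, 4 of 5 regulators and 2 of 5 fatty acid genes. The GC box GGGCGG, bound by Sp1, was in 21 of 25 (84.0%, against 38.2% of all genes with a window), and the E-box CACGTG in 5 of 25 (20%, against 8.09%). The sterol element, searched as TCACNCCAC on both strands, was found only in Hmgcs1, 137 bases before its start, where 1.44% of all genes with a window had it. These shares are over 27025 genes with a window, which were not limited to the genes tested on the arrays. These are matches of letters in a window, and many working sterol elements are spelled otherwise. The 150 bases before the start are shown for 3 of the 4 sterol genes of smallest p (Fdps is not in the table), for Hmgcs1 with its element, and for the fatty acid synthase gene Fasn; capitals mark CCAAT, its reverse ATTGG and the sterol element. In Fasn 2 CCAAT matches on opposite strands overlap in CCAATTGG. Dhcr7 has 3 annotated starts, of which the most upstream and the most downstream are given.
Dhcr7 (upstream start), chr7:143823017-143823166, plus strand: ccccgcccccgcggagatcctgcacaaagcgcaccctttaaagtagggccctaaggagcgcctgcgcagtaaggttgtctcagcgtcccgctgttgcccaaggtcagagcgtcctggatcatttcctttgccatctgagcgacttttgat
Dhcr7 (downstream start), chr7:143830064-143830213, plus strand: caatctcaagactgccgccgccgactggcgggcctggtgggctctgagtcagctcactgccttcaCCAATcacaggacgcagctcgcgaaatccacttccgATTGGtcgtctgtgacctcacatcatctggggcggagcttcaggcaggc
Idi1, chr13:8885456-8885605, plus strand: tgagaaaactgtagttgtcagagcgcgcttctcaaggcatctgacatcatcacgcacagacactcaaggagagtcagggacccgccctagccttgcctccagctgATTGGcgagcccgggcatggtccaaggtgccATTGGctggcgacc
Mvd, chr8:122443423-122443572, minus strand: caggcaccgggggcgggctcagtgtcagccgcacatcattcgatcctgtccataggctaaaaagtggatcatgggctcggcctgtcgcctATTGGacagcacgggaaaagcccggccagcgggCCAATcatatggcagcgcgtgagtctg
Hmgcs1, chr13:119690201-119690350, plus strand: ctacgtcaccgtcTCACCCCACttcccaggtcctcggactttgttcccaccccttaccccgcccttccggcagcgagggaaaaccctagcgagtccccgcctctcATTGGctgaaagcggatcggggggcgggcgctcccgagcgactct
Fasn, chr11:120824548-120824697, minus strand: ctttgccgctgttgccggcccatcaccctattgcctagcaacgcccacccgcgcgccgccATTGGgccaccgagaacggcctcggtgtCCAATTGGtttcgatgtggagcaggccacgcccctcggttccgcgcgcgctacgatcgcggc
A pair of CCAAT matches stood before the downstream start of Dhcr7, before Idi1 and before Mvd, with first bases at 85 and 49, 45 and 14, and 60 and 27 bases before the start. This was not particular to the genes of smallest p. More than 1 CCAAT match also stood in a window of Hmgcs1, Hsd17b7, Msmo1, Nsdhl and Fasn. The same held for Mvk, Ebp and Insig2, whose reported means were higher in Glis3KO2.

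The early sterol branch runs from acetyl-CoA to squalene and holds 8 of the genes. Its median log2 difference was -0.51, with 6 of 8 means lower in Glis3KO2 (75%, against 59.2% of all genes) and 3 of 8 lower at an unadjusted p under 0.05 (37.5%, against 4.75% of all genes). Acat2, which joins acetyl-CoA units into acetoacetyl-CoA, had a log2 difference of -0.25 (SE 0.28). Hmgcs1, the cytosolic HMG-CoA synthase, had log2 signals of 3.71, 3.78, 3.72 and 3.35 in Glis3KO2 and 4.95, 3.65, 4.41 and 3.69 in WT. The Glis3KO2 arrays lay close together and overlapped WT replicates 2 and 4, with a difference of -0.53 (SE 0.31, limma adjusted p = 0.697). It was -0.96 on slide 1 and -0.10 on slide 2, and -0.28 without WT replicate 1.

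Mevalonate is then phosphorylated by Mvk and Pmvk. The Pmvk means were nearly equal, at 1.81 ± 0.16 in Glis3KO2 and 1.81 ± 0.40 in WT (SD, n = 4 each), with a 95% interval of the difference from -0.55 to 0.56. The Mvk probe with the higher signal differed by 0.23 (SE 0.32) and the other Mvk probe by -0.69, so the direction of Mvk depends on the probe. Mvd, the decarboxylase that yields isopentenyl diphosphate, had log2 signals of -1.11, -0.69, -0.49 and -0.77 in Glis3KO2 and -0.35, -0.45, -0.095 and 0.28 in WT. Every Glis3KO2 array lay below every WT array, by a narrow margin between Glis3KO2 replicate 3 and WT replicate 2, with a difference of -0.61 (SE 0.24, limma unadjusted p = 0.0310, adjusted p = 0.697). On the reported probes this lower pattern was seen for 2 of the 32 genes (6.25%), Mvd and Dhcr7, and 2.60% of all genes. The reverse pattern was seen for 0 of the 32 and 0.902% of all genes.

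Idi1, the isomerase that turns isopentenyl into dimethylallyl diphosphate, had log2 signals of 3.86, 4.57, 3.68 and 3.84 in Glis3KO2 and 4.77, 4.40, 4.97 and 5.38 in WT. Only Glis3KO2 replicate 2 reached into the WT range, above WT replicate 2. The difference was -0.89 (SE 0.29, limma unadjusted p = 0.0113, adjusted p = 0.697), a 1.86-fold lower signal, and the second Idi1 probe gave -0.31. Fdps, the synthase of farnesyl diphosphate, a building block for both sterols and protein prenylation, had log2 signals of -0.92, -0.38, -0.53 and -0.55 in Glis3KO2 and 0.65, -0.78, 0.42 and 0.67 in WT. Here 3 WT arrays were above all Glis3KO2 arrays and WT replicate 2 lay among them, with a difference of -0.83 (SE 0.34, limma unadjusted p = 0.0331, adjusted p = 0.697). Without WT replicate 2 the Fdps difference was -1.17, and without both WT replicates 3 and 4 it was -0.53. Fdft1, the squalene synthase that commits farnesyl units to sterols, differed by -0.48 (SE 0.36), by -0.20 without WT replicate 4 and by -0.31 without Glis3KO2 replicate 1. Its second probe gave -0.27 but ran against the reported one over the 8 arrays (r = -0.57).

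**Figure D2:**
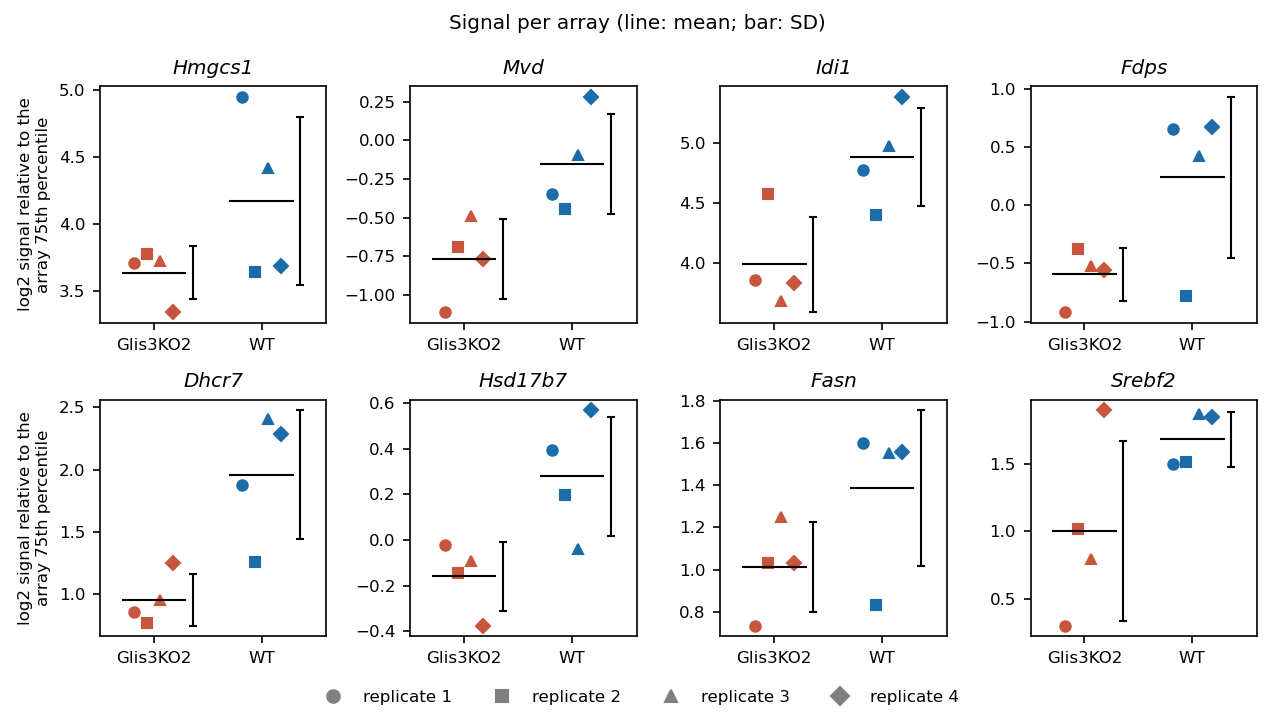
The log2 signal, scaled to the 75th percentile, on each array (symbols by replicate), with the mean (line) and SD (bar) of Glis3KO2 (left, red) and WT (right, blue), for 6 sterol enzymes, Fasn and Srebf2. On the reported probes shown, the genotypes do not overlap in Mvd and Dhcr7, while in Fdps and Fasn WT replicate 2 lies among the Glis3KO2 arrays.

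The late sterol branch, from squalene to cholesterol, holds 10 of the genes, with a median of -0.12, 7 of 10 means lower (against 59.2% of all genes) and 1 of 10 lower at an unadjusted p under 0.05 (against 4.75% of all genes). That gene was Dhcr7, the reductase that makes cholesterol from 7-dehydrocholesterol, whose human counterpart is mutated in Smith-Lemli-Opitz syndrome. Dhcr7 had log2 signals of 0.85, 0.76, 0.95 and 1.25 in Glis3KO2 and 1.88, 1.26, 2.41 and 2.29 in WT. All Glis3KO2 arrays were below all WT arrays, though Glis3KO2 replicate 4 and WT replicate 2 were nearly equal. The difference was -1.0 (SE 0.28, limma unadjusted p = 0.00549, adjusted p = 0.697), a 2.01-fold lower signal and the smallest p of the 32 genes, at rank 105 of 17513. It was -1.24 on slide 1, -0.77 on slide 2, -0.76 over replicates 1 and 2 and -1.25 over replicates 3 and 4, and the other Dhcr7 probe gave -0.76. Without both WT replicates 3 and 4 it was -0.61 (limma unadjusted p = 0.0729).

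Hsd17b7, which in this pathway reduces the keto group left by C4 demethylation, had log2 signals of -0.023, -0.14, -0.094 and -0.37 in Glis3KO2 and 0.39, 0.20, -0.037 and 0.57 in WT. On the reported probes it was lower in 4 of 4 numbered pairs, as were Dhcr7 and Mvd, that is 3 of the 32 genes, while 13.5% of all genes were lower in 4 of 4 pairs. None of the 32 was higher in 4 of 4 pairs, against 7.34% of all genes. The Hsd17b7 difference was -0.44 (SE 0.22, limma adjusted p = 0.697), and both of its probes gave -0.44. These probes followed each other only weakly over the 8 arrays (r = 0.27). On the second, replicate 2 was higher in Glis3KO2 (-0.37) than in WT (-0.96). Msmo1, the C4 methyl oxidase of the same step, differed by -0.37 (SE 0.29), and the dehydrogenase Nsdhl by -0.12 (SE 0.25), although its other probes gave -0.73 and -0.47. Lss, which folds the sterol rings, differed by -0.21 (SE 0.24), and Sqle, the epoxidase before it and a rate-limiting step, by -0.12 (SE 0.28), with a 95% interval from -0.74 to 0.50. Cyp51, the lanosterol 14-alpha demethylase, differed by -0.096 (SE 0.23), and its 3 probes all gave lower means (to -0.40) but did not follow one another over the 8 arrays (r = 0.43 and 0.0057 with the reported probe). The ring reductase Tm7sf2 (0.24, SE 0.30), the isomerase Ebp (0.15, SE 0.34) and the desaturase Sc5d (0.088, SE 0.33) had higher means in Glis3KO2, none past the threshold.

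The regulators came next, with a median difference of -0.31 over 5 genes. Of their means 4 of 5 were lower (80%, against 59.2% of all genes), and 0 of 5 had an unadjusted p under 0.05. Over all genes 4.75% were lower and 2.15% higher at such a p, and 5 genes are too few to tell 0 from these shares. Srebf2 had log2 signals of 0.30, 1.02, 0.80 and 1.89 in Glis3KO2 and 1.50, 1.51, 1.86 and 1.84 in WT. Glis3KO2 replicates 1 to 3 lay below all WT arrays and replicate 4 above them. The difference was -0.68 (SE 0.33, limma unadjusted p = 0.0654, adjusted p = 0.697), it was -0.97 without Glis3KO2 replicate 4 and -0.44 without Glis3KO2 replicate 1, and on slides 1 and 2 it was -1.13 and -0.22. With the replicate number as a block, Srebf2 had an unadjusted p of 0.0427 in limma. Srebf1 had log2 signals of -0.89, -0.66, -0.65 and 0.085 in Glis3KO2 and -0.32, -0.32, -0.044 and -0.46 in WT. It had the same layout, with Glis3KO2 replicate 4 again the highest array, and a difference of -0.24 (SE 0.26). Scap differed by -0.31 (SE 0.23), and its highest Glis3KO2 array was replicate 4 too.

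The INSIG genes, whose products retain SCAP and of which Insig1 is itself an SREBP target, differed in pattern from each other. Insig1 had log2 signals of 0.12, 0.28, 0.54 and 0.30 in Glis3KO2 and 0.26, -0.12, 1.10 and 1.30 in WT. Only WT replicates 3 and 4 stood above the Glis3KO2 range, and the difference of -0.32 (SE 0.33) became 0.24 without them. The other Insig1 probe gave -1.04, so the size for this gene depends on the probe. Insig2, which is not a classical SREBP target, differed by 0.13 (SE 0.20), with its second probe at 0.11. Stard4, which carries sterols between membranes, differed by -0.11 (SE 0.38), and its WT arrays ranged from -3.32 to -1.38 while its Glis3KO2 arrays ranged from -2.73 to -2.15.

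In the fatty acid branch 0 of 8 genes had an unadjusted p under 0.05, against 4.75% lower and 2.15% higher over all genes. So few genes cannot tell 0 from these shares. The median difference was -0.21, with 6 of 8 means lower (75%, against 59.2% of all genes). Acly, which makes cytosolic acetyl-CoA from citrate for both branches, had log2 signals of 2.95, 3.10, 2.95 and 3.97 in Glis3KO2 and 3.89, 3.21, 4.17 and 3.80 in WT. Glis3KO2 replicates 1 to 3 were below all WT arrays and replicate 4 was within them, with a difference of -0.53 (SE 0.31, limma adjusted p = 0.697) that was -1.08 on slide 1 and 0.026 on slide 2. Acaca, the acetyl-CoA carboxylase of the committed step, differed by -0.090 (SE 0.30), and 1 of its 4 probes was higher in Glis3KO2 (0.14). Fasn, the synthase of palmitate, had log2 signals of 0.73, 1.03, 1.25 and 1.03 in Glis3KO2 and 1.6, 0.83, 1.55 and 1.56 in WT. Again WT replicate 2 alone lay in the Glis3KO2 range, and the difference was -0.37 (SE 0.25, limma adjusted p = 0.709), with -0.47 for its second probe.

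The desaturases and the elongase had means in both directions. Scd1, a stearoyl-CoA desaturase, had log2 signals of -2.58, -0.83, -2.38 and -2.51 in Glis3KO2 and -1.36, -2.18, -1.60 and -1.21 in WT. Glis3KO2 replicate 2 was the highest of all 8 arrays and the other Glis3KO2 arrays were the lowest, and the difference of -0.49 (SE 0.41) became -0.90 without that array. Its paralog Scd2 differed by -0.32 (SE 0.28), at -0.81 on slide 1 and 0.17 on slide 2. Fads1 and Fads2, which desaturate polyunsaturated fatty acids, had higher means in Glis3KO2, by 0.41 (SE 0.33) and 0.25 (SE 0.23), and Elovl6, the elongase of palmitate, differed by -0.038 (SE 0.28). None of these 5 genes passed the threshold (limma adjusted p from 0.748 to 0.978).

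**Figure D3:**
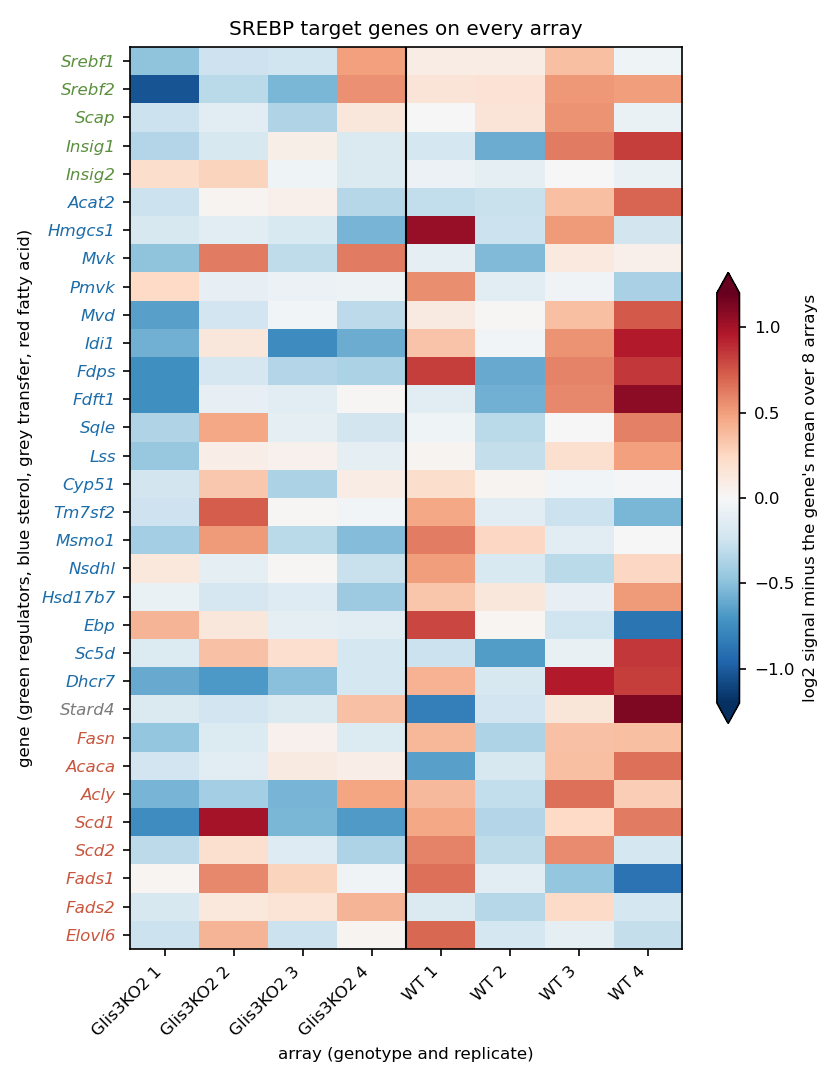
The log2 signal of each of the 32 genes (rows, in pathway order) on each array (columns, Glis3KO2 1 to 4 left of WT 1 to 4), shown as the departure from the gene's mean over 8 arrays. WT replicate 4 has the highest value for 12 genes and Glis3KO2 replicate 1 the lowest for 9.

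All probes of these genes, the reported ones included, were also counted. Of all 53 probes 42 had a lower mean in Glis3KO2. They were 24 of 30 sterol branch probes, 9 of 12 fatty acid branch probes and 6 of 8 regulator probes. The share over all probes of the arrays is not given here, while 59.2% of all genes had a lower mean on the reported probe. Probes of the same gene are not independent, so these counts are not added support for a lower signal. Over the 16 genes with several probes, 12 had all probes lower, 2 all higher (Pmvk and Insig2) and 2 mixed (Mvk and Acaca).

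The branches were then set side by side on each array, as the median over genes of the log2 signal centred on the gene's mean. The sterol branch median was -0.31, 0.054, -0.12 and -0.22 in Glis3KO2 and 0.34, -0.19, 0.062 and 0.50 in WT. Taken as the median of the genes' fitted differences (-0.23), the sterol value was -0.12 without WT replicate 4. The fatty acid median was -0.29, 0.16, -0.052 and -0.0047 in Glis3KO2 and 0.44, -0.30, 0.30 and 0.044 in WT. In both branches Glis3KO2 replicate 2 was above its own group and WT replicate 2 below its own, so the second numbered pair ran against the other pairs, with differences of 0.25 (sterol) and 0.46 (fatty acid). The regulator median was -0.35, -0.19, -0.24 and 0.14 in Glis3KO2 and 0.0012, 0.088, 0.52 and -0.055 in WT, and there it was the fourth pair that ran the other way.

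The sterol median minus the fatty acid median averaged -0.10 ± 0.081 in Glis3KO2 and 0.058 ± 0.30 in WT (SD, n = 4 each). The gap between genotypes, -0.16, was smaller than the WT spread, so these arrays do not separate the branches by genotype. By slide the sterol difference of medians was -0.41 on slide 1 and -0.24 on slide 2, the fatty acid difference -0.53 and 0.21, and the regulator difference -0.56 and -0.044.

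**Figure D4:**
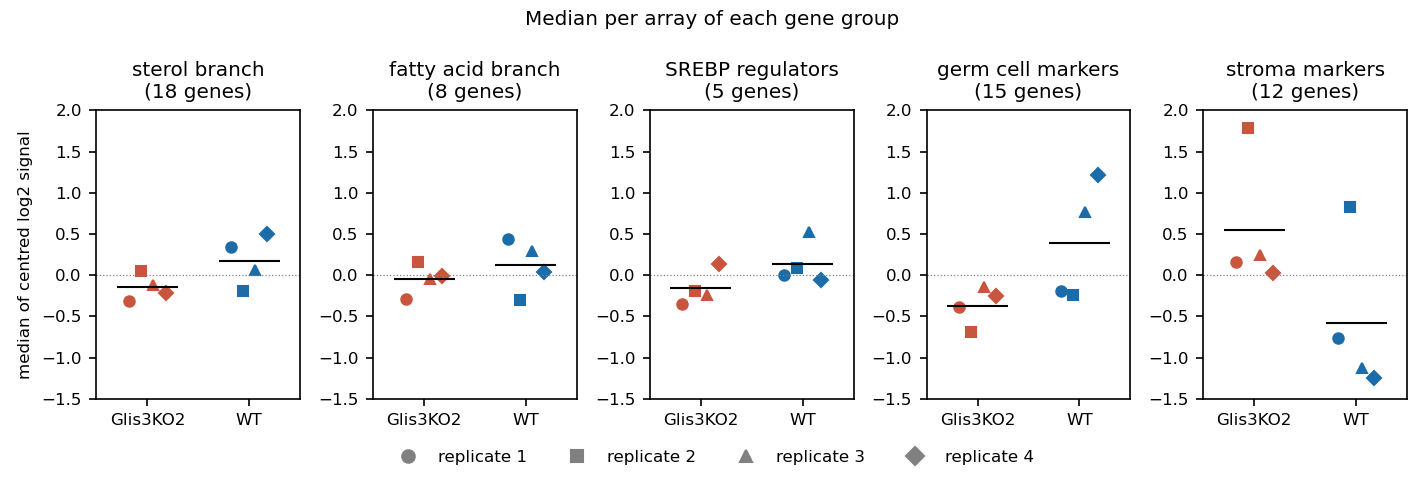
The median over genes of the centred log2 signal on each array for the 3 gene groups and for germ cell and stroma markers, with Glis3KO2 left (red) and WT right (blue); lines are means of 4 arrays. The sterol medians range from -0.31 to 0.50, while germ cell markers reach 1.22 in WT replicate 4 and stroma markers 1.78 in Glis3KO2 replicate 2.

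Cell type marker levels differed between the same arrays. The counts of lower and higher means below are to be read against 59.2% of all genes with a lower mean in Glis3KO2, and the lists are short. Germ cell markers were lower in Glis3KO2 for 15 of 15 genes, with a summed level of 26.6 to 44.7 times the array's 75th percentile in Glis3KO2 and 29.2 to 108 in WT, and their array medians were -0.39, -0.68, -0.15 and -0.26 in Glis3KO2 and -0.19, -0.24, 0.77 and 1.22 in WT. Stroma markers were higher for 12 of 12 genes, with sums of 88.5 to 336 in Glis3KO2 and 36.5 to 162 in WT. The highest sum of each genotype was in replicate 2. At that replicate both branches departed from their group, but upward in Glis3KO2 and downward in WT. Of the stroma markers Mfap5 and Dpt were well above background on 1 of 4 WT arrays each, and on 4 and 3 of 4 Glis3KO2 arrays. Leydig cell markers, mostly genes of steroid synthesis, were lower in Glis3KO2 for 7 of 9 genes and summed to 25.8 to 29.5 in Glis3KO2 and 16.7 to 79.5 in WT, with the highest sum in WT replicate 1, and Insl3 was not among the genes tested. Sertoli markers were lower for 11 of 14 genes and summed to 22.1 to 50.7 in Glis3KO2 and 28.1 to 61.5 in WT, and adipocyte markers, lower for 8 of 11, to 3.17 to 6.44 in Glis3KO2 and 3.67 to 5.09 in WT. Smooth muscle markers were higher in Glis3KO2 for 9 of 9 genes (sums of 51.9 to 161 in Glis3KO2 and 32.6 to 99.2 in WT) and macrophage markers for 12 of 13 (33.0 to 74.2 in Glis3KO2 and 20.4 to 68.0 in WT). Erythroid markers were lower for 5 of 6 genes, with sums of 6.56 to 41.9 in Glis3KO2 and 9.72 to 137 in WT, the highest in WT replicate 1. Lymphocyte markers (mouse T cells also carry Thy1) were higher for 8 of 9 genes (3.82 to 5.95 in Glis3KO2 and 3.40 to 6.61 in WT), and endothelial markers for 5 of 9 (4.05 to 7.68 in Glis3KO2 and 2.93 to 6.67 in WT). The part of these cell types in the SREBP gene values was not tested.

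Further genes of the pathway were taken from 4 lists, on enzymes that use or make sterol and isoprenoid intermediates, sterol uptake and export, the SREBP machinery and fatty acid metabolism. In the first, Aacs, which makes acetoacetyl-CoA from ketone bodies in the cytosol, had log2 signals of -0.097, 0.0033, -0.37 and -0.66 in Glis3KO2 and 0.60, 0.39, 0.56 and 0.81 in WT. All Glis3KO2 arrays lay below all WT arrays, as for 2.60% of all genes. The difference was -0.87 (SE 0.23, limma unadjusted p = 0.00338, adjusted p = 0.697), at -0.81 on slide 1 and -0.93 on slide 2, and -0.78 without both WT replicates 3 and 4. Aacs was picked by its unadjusted p under 0.05 from 9 tested genes of its list, whose count at such a p is not reported here. Over all genes 4.75% were lower at such a p.

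Over sterol uptake and export genes 1 of 21 (4.76%, against 4.75% of all genes) was lower at an unadjusted p under 0.05: Nr1h3, the sterol-sensing receptor LXR-alpha, at -0.81 (SE 0.31). Without Glis3KO2 replicate 1 or 2 or WT replicate 1 or 3 its limma p was 0.0540 to 0.0828. Of 15 other genes of the SREBP machinery 0 had such a p in either direction, against 4.75% lower and 2.15% higher over all genes. Of 30 other fatty acid genes 0 were lower (against 4.75% of all genes) and 1 was higher (3.33%, against 2.15% of all genes), a share near that of all genes. It was the 3-hydroxyacyl-CoA dehydratase Hacd1 at 1.17 (SE 0.45), whose limma p was 0.0581 to 0.0763 without Glis3KO2 replicate 2 or 3 or WT replicate 1 or 3. Neither Aacs, Nr1h3 nor Hacd1 passed over all genes (limma adjusted p = 0.697 each).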

How the data were processed

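RNA was amplified and labelled with Cy3, per the labels' protocols, and hybridised to 8 one-colour Agilent arrays. Per the file headers, the deposited intensity values come from version 12.0.0.7 of Agilent Feature Extraction (12 in the submitters' processing notes), whose processed signal is background-subtracted and detrended; the deposited flags for well above background and outliers are among other columns used. The deposited value table equalled the processed intensity on 100% of spots, so it was not used further. From there, log2 intensity minus the array's 75th percentile was taken, outlier spots (73 to 109 per array) were left out, and a probe was kept where 4 or more of 8 arrays had it well above background (36429 of 41174). RefSeq accessions named 28223 probes through a table of GRCm38.p6, and the probe of highest mean stood for its gene. Of the 32 genes 16 had several probes, which shared 1 direction in all but Acaca and Mvk.

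The test was limma 3.58.1 (R 4.3.3; lmFit and eBayes, with genotype as the one term), and p-values were adjusted by Benjamini-Hochberg across the 17513 genes. The number of arrays limits the precision. The method was tested on simulated data, with planted changes larger than the difference of any of the 32 genes. That test does not cover changes of the size reported for them. The genes, lists, named genes (all 32, Glis3, Thy1, and genes of the 4 further lists at an unadjusted p under 0.05; some named by the rule are not reported here) and tests were chosen with earlier results of these data known, so no p is given for a list. Same-numbered arrays correlated in their deviations from group means across genes (r = 0.164, 0.338, 0.178 and 0.134; genes are not independent replicates). Glis3KO2 4 with WT 3 (0.142) and Glis3KO2 3 with WT 4 (0.125) were close to these, so numbers 3 and 4 are not told apart. As all same-numbered values were over 0.1, these numbers were taken to pair the arrays, and a block on them was also fitted. No label states this pairing, and same-numbered arrays also shared a slide. The counts over numbered pairs and the block fit rest on it. Alternatives were other corrections (normexp, offset 50, on median signals), scalings, filters, probe rules, blocks, spread models and subsets of arrays.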

Additional observations from a re-analysis of the deposited data

Results flagged for a closer look

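In groups of 4 arrays, a value was set apart when its gap to the nearest array as a share of the group's range exceeded Dixon's 95% critical value. Of 80 groups examined 6 met this, and chance gives about 1 in 20. In Glis3KO2, Scd1 was at -0.83 in replicate 2 against -2.58 to -2.38 in the others, and Pmvk was at 2.05 in replicate 1 against 1.71 to 1.75. Glis3KO2 replicate 4 stood apart for 3 genes: Acly was at 3.97 against 2.95 to 3.10, Hmgcs1 at 3.35 against 3.71 to 3.78, and Stard4 at -2.15 against -2.73 to -2.67. In WT, Fasn was at 0.833 in replicate 2 against 1.55 to 1.6 in the others.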

How the results depend on the processing

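All probes of the 32 genes were well above background on all arrays. Some signs still turned with normexp and the 75th percentile, as given below, and 4 arrays a genotype limit all values. This was not shared by every fit with normexp: Mvk was 0.16 with normexp and quantile normalization. Over 25 alternatives 0 of the 32 genes reached an adjusted p under 0.05, and 10 of them never changed sign, among them Dhcr7, Idi1, Mvd, Fdps, Hmgcs1 and Srebf2. The count over all genes was 1 with quantile normalization of log2 signal and 0 otherwise. The count of the 32 genes lower at an unadjusted p under 0.05 was 4 as reported. The share of all genes lower at such a p also moved with the setting. The count was 7 with array weights (against 9.42% of all genes), 8 on slide 1 alone (3.62%) and 0 on slide 2 alone (1.88%). It was 0 in replicates 1 and 2 alone (1.71%) and 0 without both WT replicates 3 and 4 (2.35%). Fewer arrays entered all of these fits except the array weights. With 1 array left out it was 2 to 6, against 2.56% to 9.15% of all genes (2 without Glis3KO2 replicate 1 or WT replicate 4). The count higher was 1 in replicates 3 and 4 alone (against 4.94% of all genes) and 0 to 1 with 1 array left out (against 1.23% to 4.6%). Under the replicate block the count lower was 5, the added gene being Srebf2, and no other call among the 32 changed; over all genes 1108 were lower and 769 higher at an unadjusted p under 0.05, against 831 and 377 without the block. The fatty acid median was -0.57 on slide 1 alone, 0.099 on slide 2 alone, -0.064 in replicates 1 and 2 alone and -0.42 in replicates 3 and 4 alone, and the regulator median was -0.58 on slide 1 alone and -0.04 on slide 2 alone. The sterol median was -0.35 on slide 1 alone, -0.12 on slide 2 alone, -0.14 in replicates 1 and 2 alone, -0.43 in replicates 3 and 4 alone, and -0.37 with the mean over probes. With 1 array left out the sterol median was -0.35 to -0.12 (nearest to 0 without WT replicate 4), the fatty acid median -0.32 to -0.14 (without WT replicates 2 and 3) and the regulator median -0.41 to -0.17 (without Glis3KO2 replicate 4 and WT replicate 3). With normexp and the 75th percentile the median of all genes was -0.23, so differences there are to be read against it. With normexp and the 75th percentile the sign turned for Mvk -0.26, Sqle 0.036, Tm7sf2 -0.39, Ebp -0.055, Sc5d -0.15 and Insig2 -0.077. With the mean over probes the sign turned for Mvk -0.23. With array weights the sign turned for Mvk -0.022 and Sc5d -0.086. Without both WT replicates 3 and 4 the sign turned for Acat2 0.15, Pmvk -0.21, Fdft1 0.11, Sqle 0.13, Lss 0.0201, Tm7sf2 -0.049, Ebp -0.34, Acaca 0.38, Fads1 -0.058, Insig1 0.24 and Stard4 0.47. In replicates 1 and 2 alone the sign turned for Acat2 0.17, Pmvk -0.14, Sqle 0.23, Ebp -0.14, Acaca 0.24, Scd1 0.069, Insig1 0.13 and Stard4 0.32. In replicates 3 and 4 alone the sign turned for Sc5d -0.38, Elovl6 0.087 and Insig2 -0.0696. On slide 1 alone the sign turned for Mvk -0.40, Pmvk -0.17, Tm7sf2 -0.22, Ebp -0.12, Acaca 0.082, Fads2 -0.04 and Stard4 0.16. On slide 2 alone the sign turned for Cyp51 0.20, Sc5d -0.016, Acly 0.026, Scd1 0.025, Scd2 0.17, Elovl6 0.47 and Srebf1 0.10. Leaving out 1 array turned the sign within these ranges: Pmvk -0.12 to 0.19, Sqle -0.29 to 0.065, Cyp51 -0.22 to 0.014, Nsdhl -0.25 to 0.026, Ebp -0.12 to 0.44, Sc5d -0.12 to 0.38, Acaca -0.32 to 0.12, Elovl6 -0.18 to 0.18, Stard4 -0.40 to 0.24. The causes were not tested.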

Other observations

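Vldlr, a lipoprotein receptor of the uptake list, had the largest difference of that list, and was picked after its values were seen. Its log2 signals were 0.47, 1.59, 0.28 and -2.89 in Glis3KO2 and -1.57, -0.021, -4.41 and -3.47 in WT, with a difference of 2.23 (SE 1.08, limma adjusted p = 0.697). Glis3KO2 replicate 4 lay within the WT range, and in each genotype replicate 2 was the highest, as for stroma markers.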
